A study of Caenorhabditis elegans with 6 samples.

Results

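The genes described here are the neuropeptide genes of *Caenorhabditis elegans* whose names begin with flp or nlp, measured in whole L1 larvae after *elt-2* RNAi of their mothers. A row of the count table was taken when its sequence name had, in the WBcel235 annotation, a gene name made of flp or nlp and a number, and when it held at least 10 counts summed over the 6 libraries. Rows on the cosmid B0213, which carries a cluster of epidermal antimicrobial nlp genes, were left out. This gave 82 genes of 20351 rows, 30 of them flp and 52 nlp, chosen by name and total count and not by their difference between the groups. Of 102 such names in the annotation, 97 had a row. Of these rows, 6 were on B0213 and 9 held fewer than 10 counts, among them *nlp-22*, which was at 0 in all 6 libraries. The other 5 names (*nlp-39*, *nlp-61*, *nlp-63*, *nlp-78* and *nlp-82*) were not analysed here.

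The *elt-2* RNAi group consisted of 3 libraries of wild-type N2 larvae whose mothers had eaten bacteria making double-stranded RNA against *elt-2* for a day, starting on Day 1 of adulthood. The control group consisted of 3 libraries of N2 larvae whose mothers had eaten bacteria with the empty vector for the same time. In both groups the eggs were freed with bleach and hatched overnight in S-Basal, a salt buffer without bacteria, so all larvae measured were unfed first-stage larvae and had met the RNAi bacteria only through their mothers. Each library was made from RNA of a pooled population of whole worms, with the poly-A RNA read near the 3′ end (3SEQ), so that a count depends little on transcript length and levels of different genes can be set side by side. The labels give each group biological replicates A, B and C.

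Neuropeptide genes code for precursor proteins that are cut into short peptides, trimmed, often amidated at the end, packed into dense core vesicles and released to act on G protein-coupled receptors. The flp genes code for FMRFamide-like peptides, which share the end Arg-Phe-amide and are made mostly in neurons. The nlp genes are a mixed class of neuropeptide-like proteins. Most are neuronal, *nlp-40* is released from the intestine, and a glycine-rich family related to the B0213 cluster (here *nlp-24*, *nlp-25*, *nlp-26*, *nlp-32* and *nlp-33*) includes peptides of the epidermis. The gene *elt-2* codes for a GATA transcription factor of the intestine, so the comparison addresses which transcripts depend on this regulator, here among the peptide genes.

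The libraries held between 13700707 and 22124319 counts, and levels are given in CPM (a count as a rate per library, scaled here by edgeR's TMM method, which corrects for a few very abundant genes taking a large share of a library). On this scale 3 counts, taken as the floor, lie between 0.135 and 0.244 CPM. The target was checked first. *elt-2* had 1.05, 1.53 and 2.06 CPM in *elt-2* RNAi libraries A, B and C, against 1.94, 3.25 and 1.35 CPM in control libraries A, B and C. The ranges overlapped, and the log2 fold change of *elt-2* was -0.48 (adjusted p = 0.660, edgeR's quasi-likelihood test), so a fall in its RNA was not detected in these counts and the groups are named by their labels. Controls A and B each stood apart from their group. Over all genes tested the log2 CPM of control A had a rank correlation of 0.929 with *elt-2* RNAi A and 0.917 with *elt-2* RNAi C, against 0.905 with control C and 0.859 with control B. Control B correlated less with controls A and C (0.859 and 0.878) than these did with each other, and lay farthest out on the first principal component. For many results that turn on either, values without it are also given.

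A small number of genes carried most of the neuropeptide counts. The glycine-rich *nlp-24*, whose peptides have been tied to feeding in starved worms, had 1236, 1333 and 2300 CPM in the *elt-2* RNAi libraries, against 2270, 8207 and 3201 CPM in the control libraries. It alone took 50%, 60.3% and 50.2% of all counts on the 82 genes in the *elt-2* RNAi libraries and 52.8%, 68.5% and 49.9% in the control libraries. *nlp-33*, a relative that the epidermis makes on fungal infection, took 30.9%, 22.9% and 33.3% against 29.5%, 15.2% and 28.4%. Both genes were therefore the most abundant of the 82 in both groups, and *nlp-24* was above *nlp-33* in 6 of 6 libraries.

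Below this pair came *nlp-12*, a cholecystokinin-like peptide gene of a stretch-sensing neuron, with a mean over 6 libraries of 272 CPM, and *nlp-26*, another glycine-rich gene, with 192 CPM. Their order was not fixed, since *nlp-12* was the higher in 4 of 6 libraries. *flp-14* was the most abundant flp gene, with a mean of 84.3 CPM, below *nlp-26* in 6 of 6 libraries and above the next gene, *nlp-40*, in 5 of 6. After *nlp-40* (36.1 CPM) came *nlp-32* (27.4 CPM), *nlp-36* (24.4 CPM), *nlp-21* (20 CPM) and *nlp-49* (19.8 CPM). None of these neighbours kept its order in all 6 libraries, so the ranking below *flp-14* lay within the spread between libraries.

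The rest of the family was scarce. Mean levels of the 82 genes ran from 0.0456 to 1620 CPM with a median of 1.74 CPM in the *elt-2* RNAi libraries, and from 0.171 to 4560 CPM with a median of 3.00 CPM in the control libraries. Of the 82 genes, 10 reached a mean of 10 CPM in the *elt-2* RNAi group and 26 did in the control group. edgeR's expression filter, which asks for about 0.538 CPM in at least 3 libraries, kept 72 of them for testing. The 10 left out (*flp-2*, *flp-3*, *flp-25*, *flp-26*, *flp-32*, *flp-34*, *nlp-19*, *nlp-23*, *nlp-62* and *nlp-81*) had group means of at most 0.483 CPM in the *elt-2* RNAi libraries and 0.867 CPM in the control libraries. Of the 72 tested, 59 were over the filter's minimum in all 6 libraries and 2 passed it only through the control libraries.

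**Figure D1:**
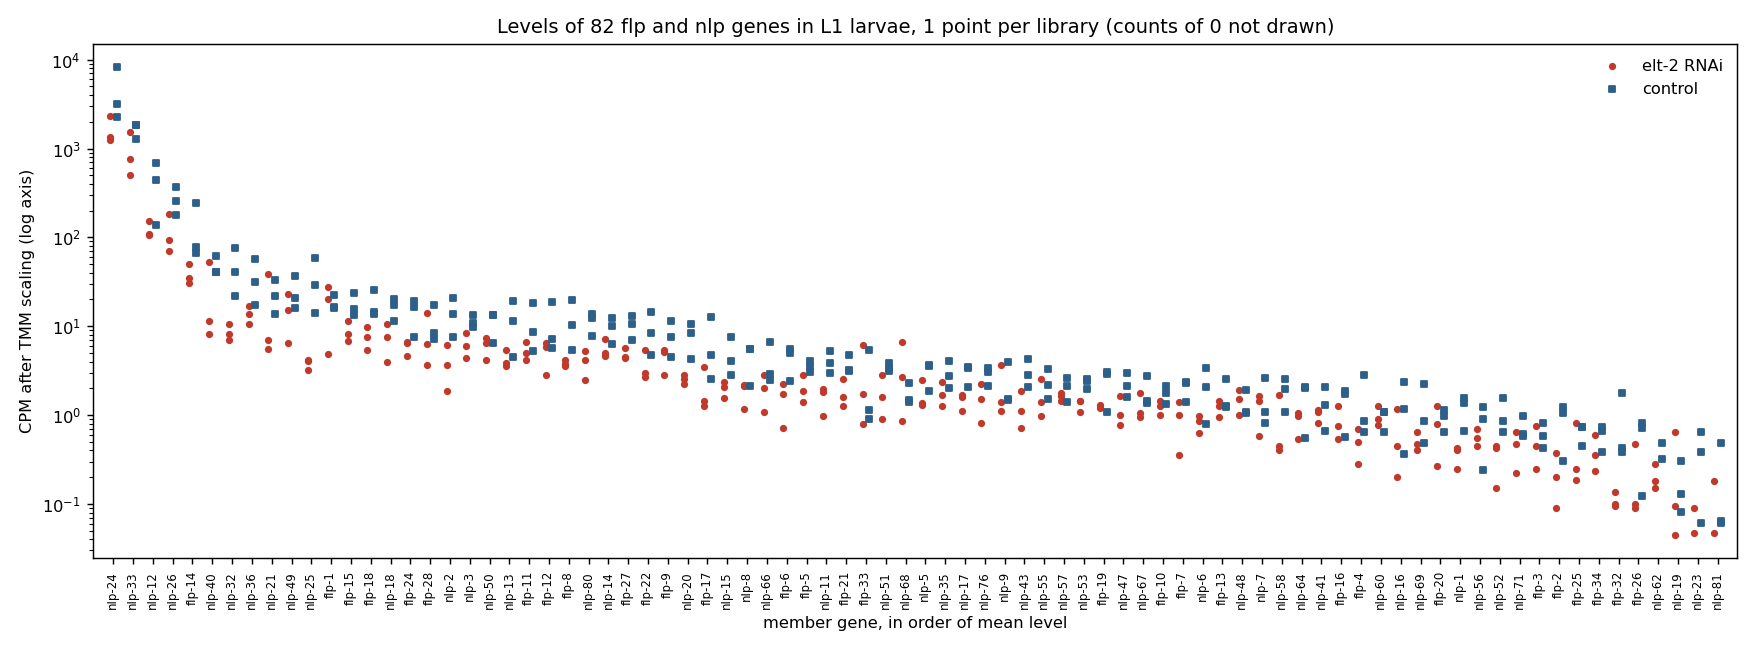
CPM after TMM scaling (log axis) of each of the 82 flp and nlp genes in the 3 *elt-2* RNAi libraries (circles, left of each pair) and the 3 control libraries (squares), ordered by mean level, 1 point per library. The levels span from *nlp-24*, at 1236 to 2300 CPM in *elt-2* RNAi libraries and 2270 to 8207 CPM in control libraries, to genes near the floor of 3 counts, and along most of the order the circles lie below the squares.

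Neuropeptide transcripts took a smaller share of the counts in the *elt-2* RNAi libraries. The 82 genes together took 0.343%, 0.252% and 0.442% of all counts in *elt-2* RNAi libraries A, B and C, against 0.517%, 0.739% and 0.567% in control libraries A, B and C, so that on this scale, shares of the raw totals, the groups did not overlap. In summed CPM after TMM they did, with 2469, 2213 and 4586 CPM in the *elt-2* RNAi libraries against 4300, 11980 and 6411 CPM in the control libraries, and likewise without the glycine-rich genes, where *elt-2* RNAi C (559.9 CPM) stood just above control A (548 CPM). Of the 72 genes tested, 68 (94.4%) had a log2 fold change below zero, with a median of -1.0, a halving, and a middle range from -1.32 to -0.70. Over all 10063 genes tested, 46.3% lay below zero and the median was 0.06. In whole-worm RNA, fewer cells of a type and less RNA per cell cannot be told apart, and this holds for every comparison given here.

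Gene by gene, few of these differences passed the test. At an adjusted p under 0.1 (edgeR's quasi-likelihood test, Benjamini-Hochberg over all 10063 genes), 3 of the 72 fell (*nlp-25*, *nlp-32* and *nlp-20*), which is 4.17% against 2.61% of all genes tested, and 0 rose, against 0.199%. This share of calls is near the background. At an unadjusted p under 0.05, 31 of the 72 (43.1%) lay lower, against 10.2% of all genes, and 0 lay higher, against 4.33%. The DESeq2 Wald test called 8 of the 72 lower (11.1%, against 5.15% of all genes) and 0 higher (against 0.894%), with 30 lower and 0 higher at an unadjusted p under 0.05 (against 10.4% and 4.37% of all genes). In 25 of the 72 (34.7%) every *elt-2* RNAi value was below every control value, against 10.9% of all genes, and in 0 was every value above, against 7.06%. Among the 59 genes over the filter's minimum in all 6 libraries, 56 lay below zero with a median of -1.0, 28 lay lower at an unadjusted p under 0.05 and 23 did not overlap. The 2 genes that passed only through the control libraries, *nlp-1* and *nlp-52*, had to differ and are among the genes below zero, at an unadjusted p under 0.05 and without overlap. Since the genes share libraries, these counts are not independent of each other.

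The number of calls depended on single libraries. It was 11 without control A (against 4.93% of all genes called lower), 2 without control B (1.45%), 1 (*nlp-25*) without control C (1.06%), 1 (*nlp-25*) without *elt-2* RNAi A (1.42%), 0 without *elt-2* RNAi B (0.744%, with 13 members lower at an unadjusted p under 0.05, edgeR) and 2 (*nlp-25* and *nlp-40*) without *elt-2* RNAi C (1.5%). The balance of directions was steadier. Between 65 and 74 of the 74 to 75 genes then tested lay below zero, and the median ran from -1.23, without *elt-2* RNAi C, to -0.80, without *elt-2* RNAi B. Scaling by library size in place of TMM moved the median of all genes to 0.42 and that of the 72 genes to -0.58, with 61 below zero, so that relative to all genes the median was -1.06 with TMM and -1.01 with library size.

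**Figure D2:**
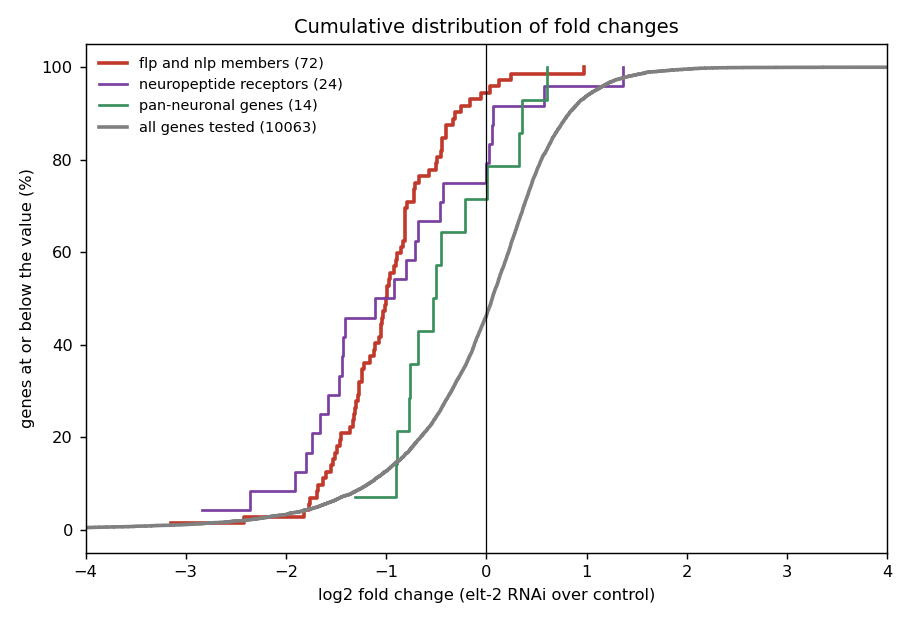
Cumulative share of genes (%, y axis) at or below each log2 fold change (*elt-2* RNAi over control, x axis from -4 to 4) for the 72 flp and nlp genes, 24 neuropeptide receptor genes, 14 pan-neuronal genes and all 10063 genes tested. The flp and nlp line reaches 94.4% at zero, where all genes stand at 46.3%.

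The libraries of a group did not stand level. *elt-2* RNAi B held the lowest value of the 6 for 50 of the 72 genes tested, and control B held the highest for 39 and control C for 24. Within the groups, *elt-2* RNAi C was the highest of its group for 52 genes, and control A the lowest of its group for 48. Measured as the median over genes of log2(CPM + 0.5) relative to each gene's mean, the flp genes stood at -0.33, -0.76 and -0.05 in *elt-2* RNAi A, B and C, against -0.01, 0.63 and 0.50 in control A, B and C. The gap between *elt-2* RNAi C and control A was thus small beside that between the other libraries of the 2 groups. Without control A, 71 of 74 genes lay below zero with a median of -1.19.

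*nlp-25* (Y43F8C.1, chromosome V, 19606180 to 19608419, WBcel235), a glycine-rich gene, fell the most. It had 82, 72 and 88 counts in *elt-2* RNAi libraries A, B and C, or 4.10, 3.23 and 4.12 CPM, against 231, 723 and 450 counts in control libraries A, B and C, or 14.04, 58.8 and 28.9 CPM. All *elt-2* RNAi libraries lay close together and below all control libraries, which themselves spread widely. The log2 fold change was -3.15 (SE 0.56), or 8.86-fold lower (adjusted p = 0.0238, edgeR). Leaving out each library in turn gave -3.51 to -2.48, the last without control B, and the call was lost only without *elt-2* RNAi B (-3.03, adjusted p = 0.1197, edgeR).

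*nlp-32* (F30H5.2, chromosome III, 486114 to 486547), of the same glycine-rich family, had 8.16, 6.96 and 10.7 CPM in the *elt-2* RNAi libraries against 21.9, 40.8 and 76.0 CPM in the control libraries. Again the groups did not overlap. Its log2 fold change was -2.42 (SE 0.53, adjusted p = 0.0561, edgeR), and it kept its sign but lost the call without control C (-1.87, adjusted p = 0.211) and without each of *elt-2* RNAi A, B and C (adjusted p between 0.111 and 0.207, edgeR).

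*nlp-20* (F45E4.8, chromosome IV, 7642054 to 7643071) was the third gene called. It had 2.85, 2.25 and 2.58 CPM in the *elt-2* RNAi libraries against 4.31, 10.7 and 8.42 CPM in the control libraries, without overlap. The log2 fold change was -1.60 (SE 0.41), and its adjusted p of 0.0997 (edgeR) was just under the threshold. Without any 1 library other than control A the call was lost, with log2 fold changes of -1.67 to -1.31 and adjusted p values of 0.164 to 0.297. Without control A it was -1.89 (adjusted p = 0.0459, edgeR). None of these 3 genes overlaps another protein-coding gene in the annotation.

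The other glycine-rich genes were lower in the mean but did not pass the test. *nlp-24* had a log2 fold change of -1.49 (adjusted p = 0.297, edgeR) and its highest *elt-2* RNAi value, 2300 CPM, lay above its lowest control value, 2270 CPM. Without control B it was -0.75 (adjusted p = 0.676). *nlp-33* had 762, 507 and 1528 CPM in the *elt-2* RNAi libraries against 1268, 1826 and 1819 CPM in the control libraries, a log2 fold change of -0.81 (adjusted p = 0.525, edgeR). *nlp-26* had 93.6, 69.6 and 182 CPM against 178, 369 and 259 CPM in the control libraries, a log2 fold change of -1.22 (adjusted p = 0.320, edgeR). All 5 genes of the family thus lay below zero, with a median of -1.49, and *nlp-25* and *nlp-32*, the least abundant of the 5, were those called. The 43 tested nlp genes outside this family had 40 below zero and a median of -0.96, so the direction did not rest on it.

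*nlp-25* and *nlp-26* are neighbours on chromosome V, 5042 bases apart on the same strand. The log2 ratio of *nlp-25* to *nlp-26* within a library was -4.51, -4.43 and -5.47 in the *elt-2* RNAi libraries and -3.66, -2.65 and -3.16 in the control libraries. The ratio was lower in every *elt-2* RNAi library, with a mean difference of -1.64 on the log2 scale (exact two-sided permutation test, p = 0.1, the smallest that 3 libraries against 3 allow). *nlp-32* against *nlp-33* gave a difference of -1.32 (exact permutation p = 0.1, again the smallest possible). Both pairs were picked after their values were seen, from 8 ratios computed (adjusted p = 0.4 for each over the 8, exact permutation test), so they are descriptions.

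**Figure D3:**
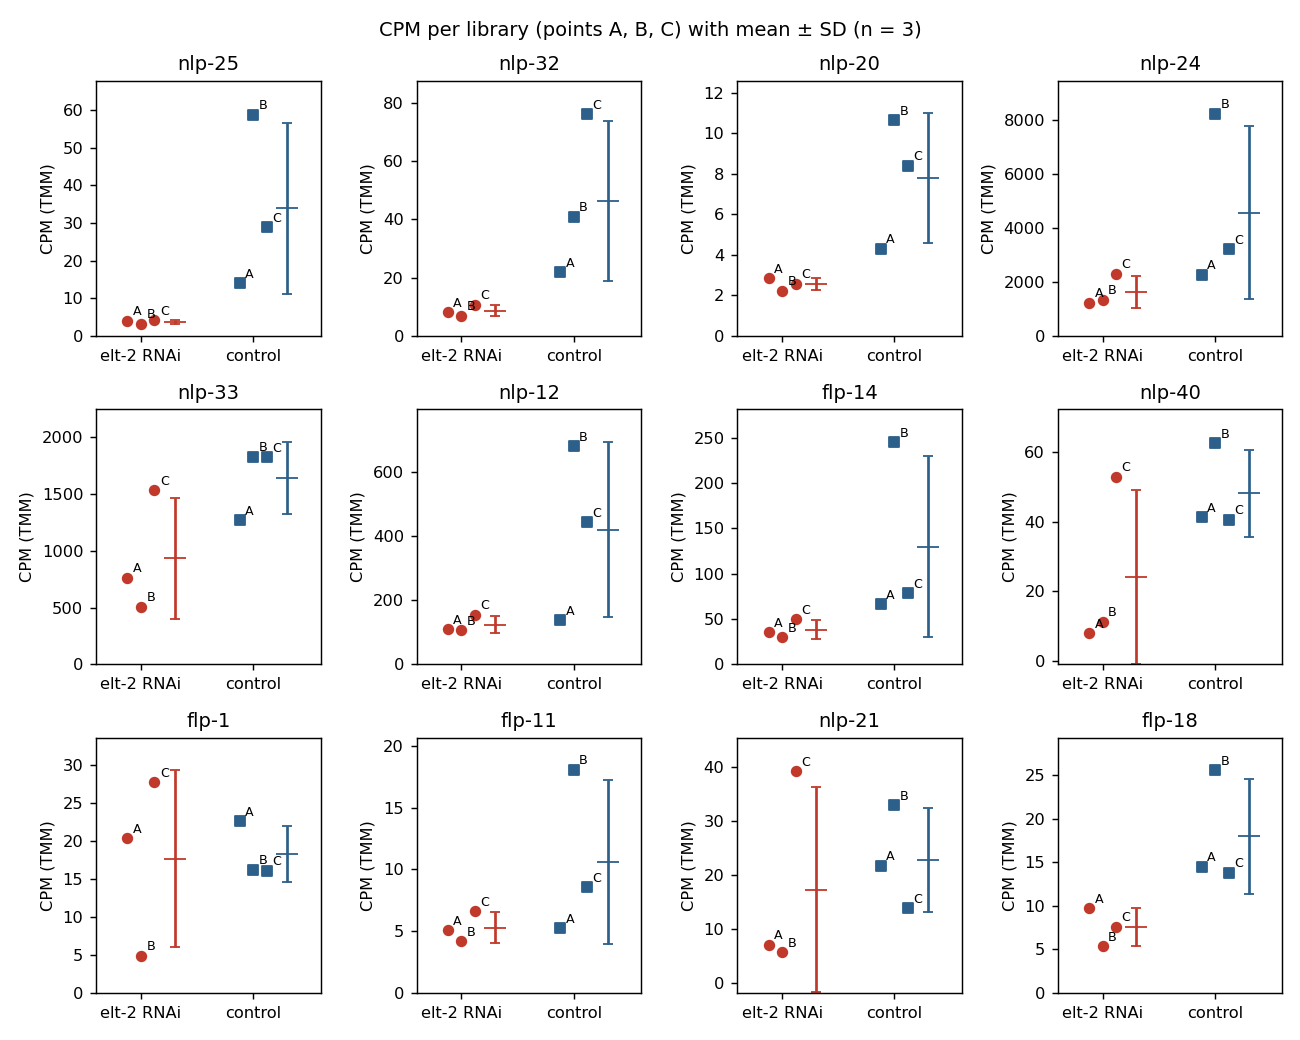
CPM per library (y axis, linear) for 12 genes in *elt-2* RNAi (circles, left) and control (squares, right) libraries A, B and C, with the mean ± SD of 3 libraries beside them. In *nlp-25*, *nlp-32* and *nlp-20* every *elt-2* RNAi point lies below every control point, while *flp-1* and *nlp-21* overlap and *nlp-40* has 1 *elt-2* RNAi library (C) at the control level.

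The flp genes lay lower as a group without any single one passing edgeR's test. Of 24 tested, 23 were below zero, with a median of -1.02, 11 had an unadjusted p under 0.05 (against 10.2% of all genes lower) and 9 had groups without overlap (against 10.9%). The DESeq2 Wald test called 2 of them, *flp-14* and *flp-8* (against 5.15%). Their summed level was 131, 94.0 and 173 CPM in *elt-2* RNAi libraries A, B and C, against 194, 465 and 260 CPM in control libraries A, B and C. The most abundant, *flp-14*, had 35.3, 30.4 and 49.9 CPM in the *elt-2* RNAi libraries against 66.7, 245 and 78.7 CPM in the control libraries. Its groups did not overlap, but control B was more than 3 times either other control, and the log2 fold change of -1.76 had an adjusted p of 0.1997 (edgeR). Without control B it was -0.91 (adjusted p = 0.550).

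The role lists given here and below are parts of the members. Of all members tested, 94.4% lay below zero and 43.1% were lower at an unadjusted p under 0.05 (edgeR), so a list of this kind can lie low without a trait of its own. Of the peptide genes tied to locomotion and arousal, all 9 tested lay below zero, with a median of -1.12. edgeR called 0 of them, with 5 lower at an unadjusted p under 0.05 (against 10.2% of all genes). The DESeq2 Wald test called 3 lower (*flp-8*, *flp-14* and *nlp-12*, against 5.15% of all genes). *nlp-12*, which tunes body bending, had 109.8, 106 and 155 CPM in the *elt-2* RNAi libraries against 137, 681 and 443 CPM in the control libraries (log2 fold change -1.77, adjusted p = 0.212, edgeR). Only control A reached down to the *elt-2* RNAi range, and without it the log2 fold change was -2.18 and was called (adjusted p = 0.0674, edgeR). Without control B, the highest library, the value was -1.23 and was not called (adjusted p = 0.517, edgeR). *flp-18*, whose peptides act on foraging and fat through NPR receptors, had 9.76, 5.39 and 7.59 CPM against 14.5, 25.6 and 13.8 CPM in the control libraries, without overlap (log2 fold change -1.25, adjusted p = 0.212). *flp-21*, a ligand of the NPR-1 receptor, had 1.601, 1.26 and 2.53 CPM against 3.10, 3.25 and 4.69 CPM in the control libraries (log2 fold change -1.03, adjusted p = 0.278). For both genes every *elt-2* RNAi library thus lay below every control library without the test being passed.

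*flp-8* had 3.75, 3.55 and 4.12 CPM in the *elt-2* RNAi libraries against 10.4, 19.6 and 5.40 CPM in the control libraries, without overlap (log2 fold change -1.63, adjusted p = 0.143, edgeR). Without control B it stood at -1.05 (adjusted p = 0.408, edgeR). *flp-7*, which links serotonin signals to fat use, had a log2 fold change of -1.12 (adjusted p = 0.362), *nlp-49*, an arousal peptide gene, -0.72 (adjusted p = 0.576), and *flp-20*, a peptide gene of touch neurons, -0.25 (adjusted p = 0.870). *flp-1* stood near zero. This gene, whose peptides of the AVK interneurons act on locomotion, had 20.4, 4.90 and 27.8 CPM in the *elt-2* RNAi libraries against 22.6, 16.3 and 16.1 CPM in the control libraries, a log2 fold change of -0.05, and the value was above zero without *elt-2* RNAi B (0.40), without control A (0.13) and with library size as the scaling (0.24).

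The peptide genes tied to sleep and quiescence gave 5 of 5 below zero, with a median of -1.0. Neither edgeR nor the DESeq2 Wald test called any (2 lower at an unadjusted p under 0.05 in each, against 10.2% and 10.4% of all genes). *flp-11*, the peptide gene of the sleep neuron RIS, had 5.05, 4.18 and 6.61 CPM in the *elt-2* RNAi libraries against 5.23, 18.1 and 8.55 CPM in the control libraries. Control A lay within the *elt-2* RNAi range, control B was the highest, and the log2 fold change was -1.0 (adjusted p = 0.376, edgeR), or -0.38 without control B (adjusted p = 0.794). *flp-24*, *flp-13* and *nlp-8* act together in the ALA neuron in sleep after stress. *flp-24* had 6.56, 4.63 and 6.70 CPM against 7.66, 19.2 and 16.5 CPM in the control libraries (log2 fold change -1.27, adjusted p = 0.212) and was called without control A (-1.57, adjusted p = 0.0850). Without control B it stood at -1.01 (adjusted p = 0.491, edgeR). *nlp-8* had -1.27 (adjusted p = 0.245). It was called without control A (-1.60, adjusted p = 0.0909, edgeR) and not without control B (-1.06, adjusted p = 0.522, edgeR). *nlp-14*, also of ALA, had -0.79 (adjusted p = 0.396), and *flp-13* -0.45 (adjusted p = 0.680, edgeR), with a value of 0.01 when scaled by library size.

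The list tied to defecation, egg laying and other organs also had 5 of 5 below zero, with a median of -0.85. edgeR called 0 (2 lower at an unadjusted p under 0.05, against 10.2% of all genes), as did the DESeq2 Wald test (1 lower, against 10.4%). *nlp-40*, whose peptide the intestine releases to pace defecation, had 8.11 and 11.4 CPM in *elt-2* RNAi A and B but 52.8 CPM in *elt-2* RNAi C, against 41.3, 62.4 and 40.5 CPM in control libraries A, B and C. Its log2 fold change of -1.0 (adjusted p = 0.531, edgeR) became -2.30 and was called without *elt-2* RNAi C (adjusted p = 0.0903). Thus 1 library decided this gene. *flp-17*, a peptide gene of the BAG neurons that restrains egg laying through EGL-6, had 1.25, 1.44 and 3.52 CPM in the *elt-2* RNAi libraries against 2.55, 12.9 and 4.69 CPM in the control libraries, a log2 fold change of -1.68 (adjusted p = 0.250) that was -0.80 without control B (adjusted p = 0.650) and -2.29 without *elt-2* RNAi C (adjusted p = 0.154). *nlp-3*, of the egg-laying neuron HSN, had -0.85 (adjusted p = 0.338), *flp-10* -0.49 (adjusted p = 0.606) and *nlp-7* -0.31 (adjusted p = 0.825, edgeR). The sign of *nlp-7* turned without control C (0.35).

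**Figure D4:**
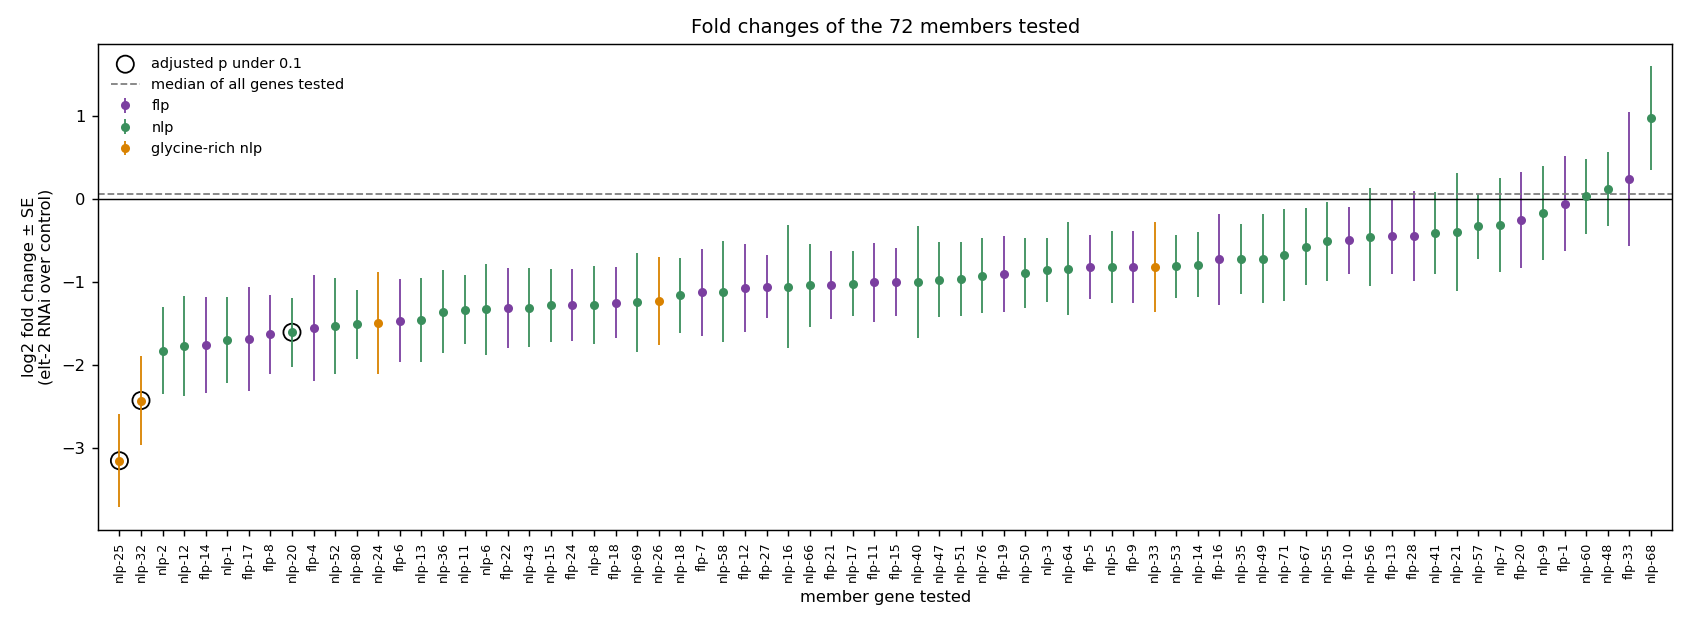
Log2 fold change (*elt-2* RNAi over control, y axis) with its SE for the 72 flp and nlp genes tested, in order of the fold change. Open rings mark *nlp-25*, *nlp-32* and *nlp-20*, the 3 genes at an adjusted p under 0.1, and the dashed line is the median of all genes tested, 0.06.

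Of the abundant genes without a listed role, *nlp-36* had 16.8, 10.7 and 13.7 CPM in the *elt-2* RNAi libraries against 31.6, 17.3 and 56.5 CPM in the control libraries, without overlap (log2 fold change -1.36, adjusted p = 0.248, edgeR). *nlp-21* had 7.01, 5.61 and 39.1 CPM against 21.6, 32.9 and 13.8 CPM in the control libraries (log2 fold change -0.40, adjusted p = 0.822), so that, as in *nlp-40*, *elt-2* RNAi C stood far above A and B. Without it *nlp-21* was at -1.83 (adjusted p = 0.140). Next to the called genes, the lowest adjusted p values belonged to *nlp-80* (log2 fold change -1.51, adjusted p = 0.124), *nlp-2* (-1.82, adjusted p = 0.136) and *flp-8*. *nlp-2* had 3.70, 1.89 and 6.19 CPM in the *elt-2* RNAi libraries against 7.60, 20.6 and 13.6 CPM in the control libraries, and *nlp-80* had 4.15, 2.47 and 5.30 CPM against 7.72, 12.5 and 13.7 CPM in the control libraries, both without overlap. Both genes were called without control A (*nlp-2* at -2.11, adjusted p = 0.0764, edgeR) and neither without control B (*nlp-2* at -1.42, adjusted p = 0.372, edgeR). At the other end, 4 genes lay above zero. These were *nlp-68* (log2 fold change 0.97, adjusted p = 0.510), *flp-33* (0.24), *nlp-48* (0.12) and *nlp-60* (0.03). *nlp-68* had 0.851, 2.65 and 6.56 CPM in the *elt-2* RNAi libraries against 1.40, 2.28 and 1.48 CPM in the control libraries, with the high value in *elt-2* RNAi C and overlap between the groups. Without that library, *flp-33* stood at -0.94, *nlp-60* at -0.19 and *nlp-48* at -0.10, and *nlp-68*, at 0.04, was the gene left above zero.

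The machinery that makes peptides did not move as one. Of 10 processing genes tested, 6 lay below zero, with a median of -0.23. edgeR called 0 (2 lower at an unadjusted p under 0.05, against 10.2% of all genes) and the DESeq2 Wald test 1, *egl-21* (against 5.15%). The 3 genes at the core of neuronal processing were among the lower ones. *egl-21*, the carboxypeptidase that trims cut peptides, had 6.51, 5.61 and 7.31 CPM in the *elt-2* RNAi libraries against 11.6, 58.5 and 22.6 CPM in the control libraries, without overlap, and its log2 fold change of -2.25 just missed the threshold (adjusted p = 0.101, edgeR). *egl-3*, the convertase that cuts precursors, had 14.5, 8.53 and 17.3 CPM against 19.6, 41.4 and 40.2 CPM in the control libraries (log2 fold change -1.33, adjusted p = 0.227), and *sbt-1*, the chaperone of that convertase, had a log2 fold change of -0.75 (adjusted p = 0.478). Without control A, *egl-21* was called at -2.64 (adjusted p = 0.0406, edgeR), and without control B it stood at -1.39 (adjusted p = 0.278). Other convertases stood above zero, *kpc-1* at 0.16, *bli-4* at 0.15 and *aex-5* at 0.51.

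The genes for dense core vesicles lay nearer to all genes, with 6 of 9 tested below zero and a median of -0.18. edgeR and the DESeq2 Wald test called 0, with 0 at an unadjusted p under 0.05. *ida-1*, a membrane protein of these vesicles, had a log2 fold change of -0.83 (adjusted p = 0.426, edgeR). *unc-31*, which primes the vesicles for release, had between 2 and 28 counts in any library and was not tested. The receptor genes lay lower. The receptor list was drawn mostly by name from genes with a row, so their presence is no result. Of its 97 genes, only 24 passed the expression filter, since most are scarce in whole larvae. Of these, 19 lay below zero, with a median of -1.02, and 1 was called, *npr-30* (against 2.61% of all genes called lower). The receptor median depended on scaling and filter. It was -0.59 with library size as the scaling, and -0.71 when every receptor gene with at least 1 count was kept. *npr-30* had 3.20, 1.53 and 4.55 CPM in the *elt-2* RNAi libraries against 8.69, 20.5 and 18.4 CPM in the control libraries (log2 fold change -2.36, adjusted p = 0.0559, edgeR). It was not called without control B, control C, *elt-2* RNAi A or *elt-2* RNAi B (adjusted p between 0.132 and 0.183). The receptor for pigment-dispersing factor, *pdfr-1*, had -1.41 (adjusted p = 0.178).

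Peptide genes with other names lay on the same side. The 4 tested were all below zero, with a median of -1.09. edgeR called 0 (3 lower at an unadjusted p under 0.05, against 10.2% of all genes) and the DESeq2 Wald test 1, *pdf-1* (against 5.15%). They were *pdf-1* (-1.39, adjusted p = 0.198) and *pdf-2* (-0.95, adjusted p = 0.299), which code for pigment-dispersing factors, *snet-1* (-1.23, adjusted p = 0.165) and *trh-1* (-0.36, adjusted p = 0.784, edgeR), which codes for a relative of thyrotropin-releasing hormone. *pdf-1* had 10.96, 9.52 and 14.1 CPM in the *elt-2* RNAi libraries against 16.1, 40.2 and 34.1 CPM in the control libraries, without overlap.

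Pan-neuronal genes, which mark neurons as such, were set beside the peptide genes because most flp and nlp genes are neuronal. Of 14 tested, 10 lay below zero, with a median of -0.52, between that of all genes and that of the peptide genes. edgeR and the DESeq2 Wald test called 0 (1 lower at an unadjusted p under 0.05 in each, against 10.2% and 10.4% of all genes). The difference between the pan-neuronal and the peptide genes was not tested. Their summed level ran from 127 to 168 CPM in the *elt-2* RNAi libraries and from 160 to 180 CPM in the control libraries. Genes of synaptic release divided. *rab-3* (-1.31, adjusted p = 0.308) and *snt-1* (-0.90, adjusted p = 0.401) were among the lower genes, while *snb-1* (0.33) and *unc-64* (0.01) stood above zero. The highest value of the list was that of *unc-33* (0.60, adjusted p = 0.542, edgeR). It was the 1 gene with every *elt-2* RNAi value above every control value (against 7.06% of all genes), and 3 had every value below (against 10.9%). Of the 16 genes of the list, *rgef-1* was at 0 in 2 libraries and the others were detected in all 6.

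Marker genes of other tissues also varied between the libraries, and a part of those tissues in the neuropeptide values was not tested. The intestinal markers had 8 of 10 below zero, a median of -1.16 and 3 called lower by edgeR (*vha-6*, *cpr-6* and *lys-8*), against 2.61% of all genes. Their sum was 101 to 401 CPM in the *elt-2* RNAi libraries against 521 to 1305 CPM in the control libraries. Body wall muscle markers had 8 of 8 below zero with a median of -0.92, with sums of 984 to 1884 CPM against 1514 to 6338 CPM in the control libraries. Pharynx markers had 5 of 6 below zero with a median of -0.92, with sums of 128 to 387 CPM against 241 to 881 CPM in the control libraries. The epidermal markers ran the other way, with 1 of 9 below zero, a median of 0.68 and sums of 485 to 3136 CPM in the *elt-2* RNAi libraries against 323 to 858 CPM in the control libraries. Glial markers had 1 of 4 below zero and a median of 0.39, with sums of 8.91 to 62.3 CPM against 7.20 to 25.3 CPM in the control libraries. Of these 4 lists edgeR called 0 genes, with 1 muscle and 1 pharynx gene lower and 1 epidermal gene higher at an unadjusted p under 0.05. Over all genes these shares were 10.2% lower and 4.33% higher. The DESeq2 Wald test called 1 muscle gene, *unc-22*, lower (against 5.15% of all genes). The glycine-rich peptide genes thus lay below zero while the epidermal markers lay mostly above it. No marker of these lists was at 0 in all 6 libraries.

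**Figure D5:**
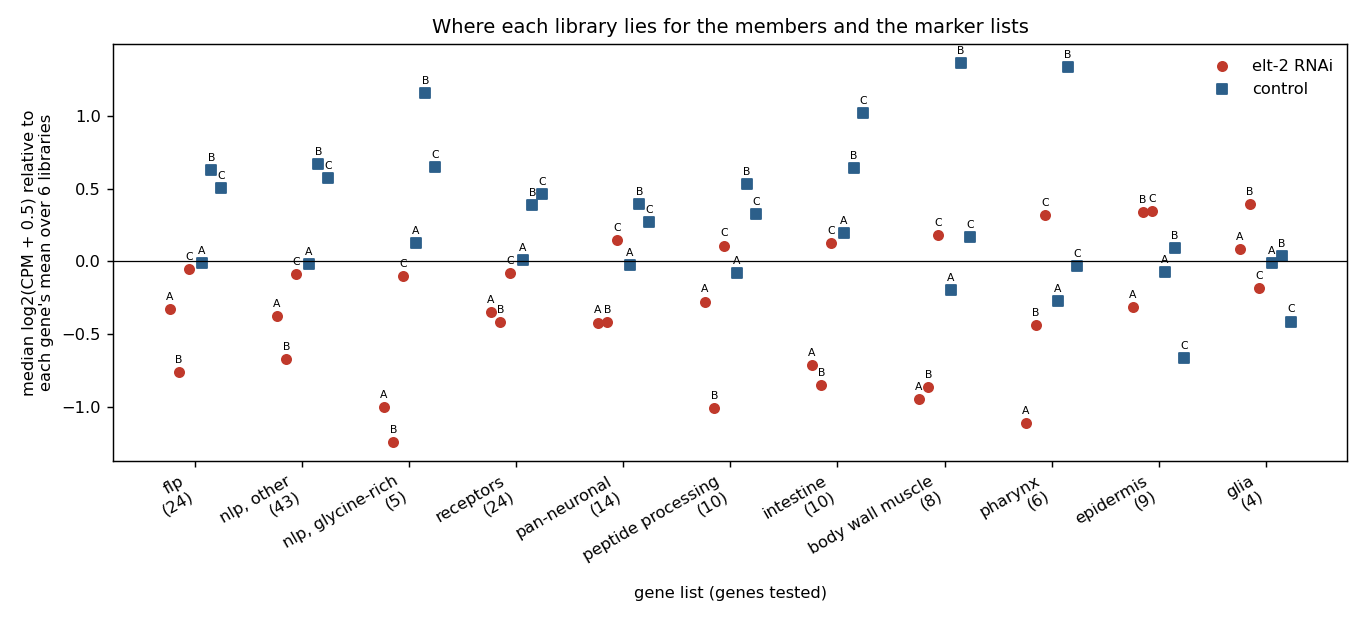
Median over the genes of each list of log2(CPM + 0.5) relative to each gene's mean over the 6 libraries (y axis), for *elt-2* RNAi (circles, left) and control (squares, right) libraries A, B and C, with the number of genes tested in brackets. For the flp genes the *elt-2* RNAi libraries stand at -0.33, -0.76 and -0.05 and the control libraries at -0.01, 0.63 and 0.50, while the epidermal list shows no such order.

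The genes share features that their names did not fix. They are short, with a median annotated coding length of 283.5 bases (192 to 978) against 1158 bases over all genes tested. Length and level were therefore checked as descriptions. Other genes tested with a coding length within the same range (3880 genes) stood at a median of 0.07 on the log2 scale, with 46.7% below zero. Other genes within the middle range of the members' mean level, 1.49 to 8.83 CPM (4793 genes), had a median of 0.11 and 42.7% below zero, where the 36 flp and nlp genes of that range had -0.97 and 94.4%. The genes within the length range were still longer, with a median of 618 bases against 279 bases for the members tested. A part of length or level in the fold changes was not tested.

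Chromosome X held 28 of the 82 genes (34.1%), against 13.2% of all rows matched to the annotation. All 22 tested there lay below zero, with a median of -0.88, and on the autosomes 46 of 50 did, with a median of -1.04. Median log2 fold changes by chromosome ran from -1.29 on III to -0.72 on IV, so the direction was shared by all 6. A limit is set by overlap. In the annotation 23 of the 82 genes overlap another protein-coding gene, 22 of them on the opposite strand (among them *nlp-24* with *glb-15*, *nlp-26* with Y43F8C.3, *flp-1* with *daf-10*, *nlp-2* with T01B6.1 and *flp-33* with *ntr-1*). Whether the counting used strand is not given in the sources used here, so reads of such a pair cannot be told apart.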

How the data were processed

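Poly-A RNA of pooled whole L1 larvae was sequenced as 3SEQ libraries, 3 per group. The authors deposited whole-number counts of reads per gene for 20351 sequence names, without normalization. The submitters' processing notes name Bowtie 0.12.7. The counting tool, genome build and annotation are not given in the sources used here. Names and positions came from the WBcel235 annotation, which matched 19433 of the names. Libraries held 13700707 to 22124319 counts. Floors and intervals from counts cover counting error only.

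Counts were tested with edgeR 4.0.16 in R 4.3.3 (quasi-likelihood test, TMM scaling, its expression filter), with Benjamini-Hochberg adjustment over 10063 genes and genes were called at an adjusted p under 0.1. The study's rank product, which permutes genes, was not run. Standard errors were derived from each fold change and its F value. The edgeR fit was tested on simulated data. Levels are CPM after TMM. The pseudocount in log2(CPM + 0.5) applies to the medians per library only. Exact permutation tests went through every split of the 6 libraries into 3 and 3, and figures used matplotlib 3.10.9. Alternatives were library size and DESeq2 1.42.0 size factors as scaling, the DESeq2 Wald test, 2 other filters, an adjusted p under 0.05, stricter minimum levels, the replicate letter as a block, and leaving out each library.

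Genes named are *elt-2*, the members called, the 10 most abundant, the 5 highest and 5 lowest fold changes, the members of the role lists, and, of the other lists, the called genes with *egl-3*, *egl-21*, *sbt-1*, *unc-31* and *ida-1*. Others, such as *nlp-80* and further processing, receptor, peptide and neuron genes, were named after their values were seen. The members and all gene lists were chosen with earlier results of these data known. Promoter motifs and precursor sequences were not examined.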

Additional observations from a re-analysis of the deposited data

How the results depend on the processing

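The count of members called lower, 3, was 1 with library size as the scaling (1.48% of all genes called lower), 8 with the DESeq2 Wald test (5.15%), 12 among all genes with at least 1 count (4.54%), 5 with the replicate block (4.41%) and 1 at an adjusted p under 0.05. It was 2 with DESeq2 size factors (2.78% of members, 2.53% of all genes) and 2 with a mean count of at least 10 (2.82% and 2.37%), both near the background. With 1 library left out it ranged from 0 to 11 (0.744% to 4.93% of all genes). No member was called higher in any of these (at an unadjusted p under 0.05, edgeR had 0 or 1 members higher and the DESeq2 Wald test 0). The median log2 fold change, -1.0, was -0.58 with library size as the scaling, -1.19 among members with a mean of at least 5 CPM, and ran from -1.23 to -0.80 with 1 library left out. The number of members below zero, an alternative added after the data were seen, was 61 to 77 of 71 to 82 tested over the 12 alternatives. With library size as the scaling 7 members turned sign, among the named genes *flp-1* (0.24), *flp-13* (0.0115), *flp-20* (0.0641) and *nlp-7* (0.0639). With 1 library left out the named genes that turned were *nlp-21* (-1.83 to 0.03), *flp-1* (-0.51 to 0.40), *nlp-60* (-0.19 to 0.19), *nlp-48* (-0.10 to 0.46), *flp-33* (-0.94 to 1.48), *flp-20* (-0.77 to 0.17) and *nlp-7* (-0.59 to 0.35). The cause of these moves was not tested. Over the named genes, 400 alternative values kept their direction and side of the threshold, 19 gained the call, 19 lost it and 18 turned.

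Replicates share only a letter. Deviations of same-letter libraries from their group means correlated at 0.32 for A, 0.38 for B and 0.03 for C, and control C correlated best with *elt-2* RNAi A (0.30). With the replicate block *nlp-2* and *nlp-80* were also called, and the median was -0.99. The promoter motif alternative was not run, since no genome sequence was used here.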
